A study of Mus musculus with 8 samples.

Results

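Trem2, Tyrobp, Cst7, Itgax, Clec7a, Lpl, Axl, Cd9, Spp1 and Csf1 are genes that rise in disease-associated microglia, a state described in mouse models of amyloid pathology. The 10 genes were taken by their symbols, and 9 of them had a row among the 30211 genes counted, while Clec7a was not analysed here. They were read in sn-RNAseq data of the hippocampus of mice labelled C57BL/6 (C57BL/6N in the methods of the study): 3 WT and 3 GKO mice aged 7 months, 1 J20;WT mouse and 1 J20;GKO mouse aged 6 months, with 1 library per mouse. The methods of the study state that males and females were both used. GKO mice are GSAP -/- in every cell, from a constitutive deletion of Gsap exons, and J20 mice carry human APP with the Swedish and Indiana mutations under the PDGFB promoter, which drives it in neurons. The question put to each gene was where in the hippocampus it is expressed and whether its level differs between the J20 mice and the rest, or between GKO and WT mice.

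Microglia are the resident macrophages of the brain. TREM2 is a receptor on their surface that senses lipids and lipoproteins, and it signals through the adaptor TYROBP (DAP12) and the kinase SYK. Near amyloid plaques, microglia lower homeostatic genes and raise genes of phagocytosis, lysosomes and lipid metabolism, and the later part of that program depends on TREM2. The 9 genes were therefore ordered by role: the receptor pair Trem2 and Tyrobp, the surface proteins Itgax, Axl and Cd9, and the secreted proteins and enzymes Cst7, Lpl, Spp1 and Csf1.

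After the filter on nuclei, 32041 of 33314 barcodes remained, with 21020159 to 43310978 UMIs (unique molecular identifiers, 1 per captured transcript) per library, and no pair of libraries shared more than 27 barcodes. Gsap itself stood at 19.8 to 23.0 CPM (the UMIs of a gene scaled to a total of 1000000) in all 8 libraries, so its level is no check on the GKO labels, and GKO stands here for the libraries labelled so. Both J20 mice were 1 month younger than the rest, so that age and J20 genotype cannot be told apart. The deposited data carry 3 dates, 1 for WT 1 and GKO 1, 1 for J20;WT alone and 1 for the other 5 libraries. What they date is not stated, and the date and the genotype of J20;WT cannot be told apart either. Each mouse is a separate sample, but with 1 mouse per J20 genotype a J20 test rests on 2 mice against 6, or on 1 J20 mouse where a date term or 4 groups are fitted.

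Nuclei were assigned to cell types by marker genes that include none of the 10 genes. This gate gave 2050 microglia, of which 2020 (98.5%) also lay in the microglia-like cluster of an unsupervised clustering, and 95 nuclei lay within 25% of the cut. Each library held 183 to 320 of them, at a median of 1664 to 2332 UMIs per nucleus. Of the defining markers, Csf1r stood at 1124 to 2078 CPM in the gated nuclei of all libraries. Microglia made up 4.94% to 7.11% of nuclei in the 6 WT and GKO libraries, 6.03% in J20;WT, with J20;GKO at 9.48%. The mean J20 share was 1.59 percentage points above the rest (2-sided exact permutation test, p = 0.214, adjusted p = 0.583 over 7 cell types, where 2 mice against 6 allow no p below 0.0357), and without J20;GKO the difference was -0.14 points.

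Trem2 and Tyrobp marked microglia. Trem2 (ENSMUSG00000023992, GRCm38 chr17:48346401-48354147, plus strand, protein-coding) had 82.8% of its 5836 UMIs in the 2050 gated microglia, which held 1.71% of all UMIs. Tyrobp (ENSMUSG00000030579, chr7:30413760-30417585, plus strand, protein-coding) had 76.7% of its UMIs there. In a fit with the mouse as a block, edgeR's quasi-likelihood test put Trem2 higher in microglia by 7.65 to 9.50 on the log2 scale than in each of 6 other cell types, and Tyrobp by 6.39 to 8.56. The largest of the 12 adjusted p-values was 1.9e-22.

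Outside microglia both genes were highest in the 51 nuclei gated as border macrophages, at 356 CPM each, and low in the 6 types compared. Trem2 stood at 1.81 to 4.41 CPM and Tyrobp at 0.919 to 3.93 CPM, pooled over libraries, in neurons, astrocytes, oligodendrocytes, OPCs (oligodendrocyte precursor cells) and mural cells or fibroblasts. A Trem2 UMI was found in 73.6% of microglia at a median of 1944 UMIs per nucleus, in 2.04% of excitatory neurons at a median of 10085 and in 0.774% of oligodendrocytes at a median of 2200. With each nucleus thinned to 1000 UMIs the shares were 58.5%, 0.324% and 0.394%. There were 2.7 Trem2 UMIs per Tyrobp UMI in microglia, 1.86 in excitatory neurons and 1.12 in oligodendrocytes, and the source of the low counts outside microglia was not tested. In excitatory neurons the Trem2 level was higher in J20;WT (4.86 CPM of Trem2) and J20;GKO (4.52 CPM) than in the 6 other libraries (1.71 to 2.74 CPM). The fit over all genes gave Trem2 a log2 fold change of 0.91 with an adjusted p of 0.142 (edgeR). Tyrobp was higher there too, at 1.97 and 2.94 CPM in the J20 libraries against 0.712 to 1.93. In inhibitory neurons Tyrobp stood at 3.04 and 3.62 CPM against 0 to 1.61, from 9 UMIs in all, while Trem2 overlapped.

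The 7 other genes were less restricted. Cd9 (ENSMUSG00000030342, chr6:125460266-125494791, minus strand, protein-coding) encodes a tetraspanin of the plasma membrane. It was lower in microglia than in OPCs by 0.84 (log2, standard error 0.22, adjusted p = 0.00102, edgeR), differed from oligodendrocytes by -0.09 (standard error 0.22, adjusted p = 0.746, edgeR) and was higher in microglia than in astrocytes by 0.77 (adjusted p = 0.00262, edgeR). Of its UMIs, 34.8% were in oligodendrocytes, 16.3% in OPCs and 11.0% in microglia. Cd9 overlaps 2 genes on the opposite strand, and whether reads were counted by strand is not stated in the sources used here.

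Axl (ENSMUSG00000002602, chr7:25757273-25788705, minus strand, protein-coding), a receptor tyrosine kinase for GAS6 that binds dying cells, stood at 134 CPM in mural cells or fibroblasts, 78.1 CPM in border macrophages (9 UMIs in 51 nuclei), 63.5 CPM in astrocytes and 11.0 CPM in microglia. It had 53.8% of its UMIs in astrocytes and 3.5% in microglia. Relative to microglia it was higher in mural cells or fibroblasts by 3.38, in astrocytes by 2.82 and in OPCs by 1.34 on the log2 scale, each past the threshold, and lower in neurons and oligodendrocytes. Itgax (ENSMUSG00000030789, chr7:128129547-128150657, plus strand, protein-coding), the integrin chain of CD11c, had 98 UMIs in all nuclei and 19 in microglia, and the filter on low counts removed it from the test. Its pooled level was 4.55 CPM in microglia against 0 to 0.511 CPM in the 6 other types.

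Among the secreted proteins, Csf1, Lpl and Spp1 had their highest level elsewhere. Csf1 (ENSMUSG00000014599, chr3:107741048-107760469, minus strand, protein-coding), the growth factor that keeps microglia alive, stood at 77.4 CPM in oligodendrocytes, 50.1 in astrocytes and 14.4 in microglia. It was lower in microglia than in oligodendrocytes by 2.74 and than in astrocytes by 2.05 on the log2 scale (adjusted p = 4.6e-22 and 1.1e-14, edgeR). Lpl (ENSMUSG00000015568, chr8:68880491-68907448, plus strand, protein-coding), lipoprotein lipase, had 91.3% of its UMIs in excitatory neurons, which held 71.5% of all UMIs, and was lower in microglia than in these neurons by 1.12 (standard error 0.31, adjusted p = 0.000788, edgeR).

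Spp1 (ENSMUSG00000029304, chr5:104435118-104441050, plus strand, protein-coding), the secreted phosphoprotein osteopontin, was highest in mural cells or fibroblasts, at 728 CPM against 5.98 CPM in microglia. In microglia it was lower by 7.12 on the log2 scale (standard error 0.42, adjusted p = 5e-20, edgeR). Spp1 overlaps Gm42793 on the same strand, and reads shared by them could be split by the counting. Cst7 (ENSMUSG00000068129, chr2:150570415-150578944, plus strand, protein-coding), cystatin F, an inhibitor of lysosomal cathepsins, stood at 4.31 CPM in microglia and at 0 to 0.741 CPM in the others, with 18 UMIs in microglia. The filter on low counts removed it from the test.

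**Figure D1:**
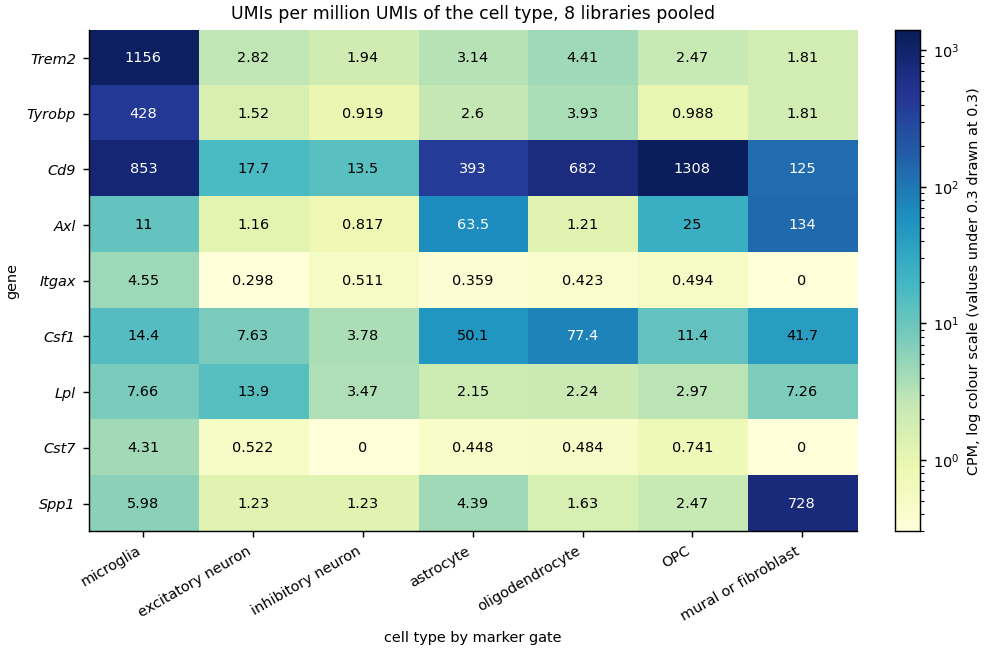
Level of the 9 genes in 7 cell types, in CPM of that type with the 8 libraries pooled, on a logarithmic colour scale. Trem2 and Tyrobp are high in microglia and low elsewhere, Cd9 is high in microglia and in the oligodendrocyte lineage, and Spp1 is highest in mural cells or fibroblasts, at 728 CPM.

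Over the 7 genes that could be tested (Cst7 and Itgax were filtered), 6 were higher and 1 lower in microglia than in excitatory neurons, where 33.8% and 39.5% of the 13001 genes tested were higher and lower. Against inhibitory neurons 5 were higher and 0 lower (32.7% and 38.3% of all genes). The counts were 4 and 2 against astrocytes (29.6% and 33.8%), 4 and 1 against oligodendrocytes (27% and 31.5%), 2 and 2 against OPCs (29% and 32.9%), and 3 and 3 against mural cells or fibroblasts (25.4% and 15.6%). The Spp1 call against excitatory neurons (1.68, adjusted p = 0.0181, edgeR) rested on J20;GKO, without which the difference was -0.48, and the Csf1 call against the same neurons (0.65) was lost without J20;WT (adjusted p = 0.0774, edgeR) or J20;GKO (0.138). Scaling to library size alone moved the median difference of all genes from between -0.12 and -0.03 to between 0.12 and 0.20 against 5 types, and from 0.24 to -0.04 against mural cells or fibroblasts. It turned the split of all calls from 4398 higher and 5132 lower to 5574 and 4247 against excitatory neurons, from 3846 and 4395 to 5132 and 3555 against astrocytes, from 3506 and 4100 to 4836 and 2863 against oligodendrocytes, and from 3297 and 2024 to 2383 and 2539 against mural cells or fibroblasts. Of the differences of the 7 genes that passed the threshold, none changed sign under that scaling.

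In 4 of the 9 genes the stretch before the start of the gene is shown, because their level in both J20 libraries lay above the 6 others or, for Trem2, because its product is the receptor of the group. The sequences are 250 bases upstream of the RefSeq start on GRCm38.p6, in the direction of the gene, and capitals mark GAGGAA or its reverse complement TTCCTC, a core of sites for the myeloid factor PU.1.
Trem2 (chr17:48346151-48346400, plus strand): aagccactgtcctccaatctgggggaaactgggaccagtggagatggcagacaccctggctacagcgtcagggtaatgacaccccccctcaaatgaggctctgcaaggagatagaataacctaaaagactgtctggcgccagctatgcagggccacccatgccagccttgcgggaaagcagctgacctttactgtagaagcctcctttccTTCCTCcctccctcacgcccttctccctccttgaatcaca
Cd9 (chr6:125494761-125495010, minus strand): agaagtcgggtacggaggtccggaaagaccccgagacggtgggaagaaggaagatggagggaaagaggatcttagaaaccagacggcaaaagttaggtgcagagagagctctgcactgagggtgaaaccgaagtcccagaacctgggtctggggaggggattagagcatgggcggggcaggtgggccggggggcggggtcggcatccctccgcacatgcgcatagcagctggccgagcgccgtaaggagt
Cst7 (chr2:150570165-150570414, plus strand): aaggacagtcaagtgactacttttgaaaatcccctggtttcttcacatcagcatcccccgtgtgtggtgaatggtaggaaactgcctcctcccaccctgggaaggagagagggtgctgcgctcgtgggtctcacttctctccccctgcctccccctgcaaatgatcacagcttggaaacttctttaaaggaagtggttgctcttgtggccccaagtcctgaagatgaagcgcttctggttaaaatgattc
Csf1 (chr3:107760470-107760719, minus strand): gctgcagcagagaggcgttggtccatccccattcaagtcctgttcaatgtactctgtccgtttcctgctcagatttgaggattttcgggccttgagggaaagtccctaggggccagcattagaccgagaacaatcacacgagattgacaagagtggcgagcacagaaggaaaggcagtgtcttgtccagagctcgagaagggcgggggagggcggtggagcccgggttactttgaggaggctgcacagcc
The window of Trem2 holds 1 match on the reverse strand, and those of Cd9, Cst7 and Csf1 hold none. RefSeq windows were found for 7 of the 9 genes, and 3 of these 7 (Trem2, Axl and Spp1) hold GAGGAA on either strand, while 23.1% of all 27025 windows do. The windows of Axl and Spp1 that hold it end at no annotated transcript start. A match describes these letters and shows no binding.

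In microglia of J20 mice, 5 of the 9 genes were higher than in every other mouse. Tyrobp, Cd9, Csf1, Lpl and Cst7 had higher CPM in both J20 libraries than in any of the 6 WT and GKO ones, and none of the 9 was lower in both. Of the 12261 genes with at least 18 microglial UMIs, the count of the least detected of the 9, both J20 libraries were above the rest for 3.97% and below it for 4.64%. That least detected gene, Cst7, reached the floor through the J20 libraries, with 10 of its 18 UMIs in J20;WT and 4 in J20;GKO. Lpl, Spp1 and Itgax also reached it only with their J20 counts. In J20;WT and J20;GKO these were 9 and 12 of 32 UMIs for Lpl, 0 and 22 of 25 for Spp1, and 2 and 4 of 19 for Itgax. These shares are therefore no measure for Cst7, Lpl, Spp1 or Itgax. By edgeR's quasi-likelihood test over the 8856 genes that passed the filter on low counts, however, none of the 6 genes tested (Trem2, Tyrobp, Cd9, Axl, Csf1 and Lpl) passed an adjusted p under 0.05, and 0 of the 8856 genes did (0%), with 601 at an unadjusted p under 0.05 and 1 gene called by DESeq2. The median log2 fold change of the 6 was 1.20, and that of all genes tested -0.02. Lpl and Csf1 passed the filter through their J20 counts. Axl did not pass in the WT and GKO libraries alone either, and had 18 UMIs in WT 1 and 13 in J20;GKO. The median of the 6 therefore rests in part on how Lpl, Csf1 and Axl were admitted.

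Of the receptor pair, Trem2 stood in gated microglia at 536, 1568 and 1657 CPM in the WT libraries, 501, 799 and 1144 in GKO, 2072 in J20;WT and 1645 in J20;GKO. J20;WT was the highest library and J20;GKO lay just under WT 3, so the groups overlapped. The log2 fold change, J20 over the rest, was 0.90 (standard error 0.48, adjusted p = 0.788, edgeR). For Tyrobp the values were 231, 534 and 413 CPM in WT, 228, 304 and 425 in GKO, 854 in J20;WT and 637 in J20;GKO. Here both J20 libraries stood above all others, by 1.09 on the log2 scale in the fit (standard error 0.29, adjusted p = 0.48, edgeR), and without WT 1 the adjusted p was 0.0749. A Tyrobp UMI was found in 67.7% of the microglia of J20;WT and 68.3% of J20;GKO, and in 34.7% to 58.0% in the other libraries. With nuclei thinned to 1000 UMIs, J20;GKO stood level with the highest WT library, both at 41.7%, and J20;WT stood at 55.6%.

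Among the surface proteins, Cd9 stood at 328, 1158 and 1149 CPM in WT, 276, 490 and 749 in GKO, 1552 in J20;WT and 1593 in J20;GKO. Both J20 libraries were above all others, with a difference in the fit of 1.30 on the log2 scale (standard error 0.59, adjusted p = 0.769, edgeR). Outside microglia Cd9 was in J20 libraries above all others only in mural cells or fibroblasts among 5 types read by library, at 279 and 208 CPM against 14.2 to 194 CPM (1.46 on the log2 scale, adjusted p = 0.987, edgeR). In OPCs it stood at 833 to 1653 CPM in the other 6 libraries, 1573 in J20;WT, with J20;GKO at 2064, and in oligodendrocytes at 353 to 947, 1163 and 868, with groups that overlapped in both types. Axl followed no group in microglia, at 24.9, 0 and 5.26 CPM in WT, 7.85, 9.34 and 3.78 in GKO, 5.56 in J20;WT, with J20;GKO at 22.4, and its fold change of 0.75 (standard error 0.83, adjusted p = 0.908, edgeR) turned to -0.94 without J20;GKO. Itgax lay between 0 and 7.56 CPM in the other libraries, at 5.56 in J20;WT and 6.89 in J20;GKO, from 0 to 4 UMIs each, so no difference was detectable at this depth.

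The secreted proteins and enzymes were rare in microglia and held the largest J20 fold changes of the 6 genes tested (Lpl and Csf1). In the WT and GKO libraries alone neither passed the filter on low counts. Both entered the J20 test through their J20 counts, so their fold changes and ranks are not independent of the filter. Lpl stood at 2.76, 5.54 and 0 CPM in WT, 3.14, 0 and 7.56 in GKO, 25.04 in J20;WT (95% Poisson interval 11.4 to 47.5) and 20.7 in J20;GKO (10.7 to 36.1). The J20 difference, 2.69 on the log2 scale (standard error 0.75, adjusted p = 0.377, edgeR), ranked first of 8856, and it rests on 9 and 12 UMIs in the J20 libraries and 11 in the other 6 together. With nuclei thinned to 1000 UMIs, the share with an Lpl UMI was 0.51% in J20;WT and 0.394% in J20;GKO, within the 0% to 1.06% of the others. Excitatory neurons, where Lpl has most of its UMIs, had 10.1 to 17.2 CPM in the other libraries, 19.9 in J20;WT and 11.0 in J20;GKO. Csf1 stood at 9.68, 12.9 and 10.5 CPM in WT, 11.0, 7.01 and 9.46 in GKO, 30.6 in J20;WT (15.3 to 54.8) and 27.6 in J20;GKO (15.7 to 44.7). The 6 other libraries lay close together, and the fold change of 1.53 (standard error 0.44, adjusted p = 0.387, edgeR) ranged from 1.46 to 1.59 when each library was left out in turn.

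Cst7 and Spp1 each stood high in 1 of the J20 libraries and were below the filter on low counts. Cst7 stood at 1.38, 0 and 0 CPM in WT, 1.57, 0 and 3.78 in GKO, 27.8 in J20;WT (13.3 to 51.2, from 10 UMIs) and 6.89 in J20;GKO (1.88 to 17.6, from 4 UMIs). A count of 0 allows up to 5.54 CPM in WT 2, 7.89 in WT 3 and 7.01 in GKO 2, so the value of J20;GKO was within or near what those libraries could hold. Spp1 stood at 0 to 2.63 CPM in the 6 other libraries, at 0 in J20;WT and at 37.9 in J20;GKO (23.7 to 57.4). Of the 22 Spp1 UMIs in J20;GKO, 10 came from 1 nucleus, and the rest from 10 nuclei. In the same library Spp1 was also highest in mural cells or fibroblasts, at 2009 CPM against 321 to 1193 in the 7 others, in astrocytes, at 28.7 against 0.664 to 6.79, and in excitatory neurons, at 3.88 against 0.432 to 1.503. The part of that level in the microglial value was not tested.

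**Figure D2:**
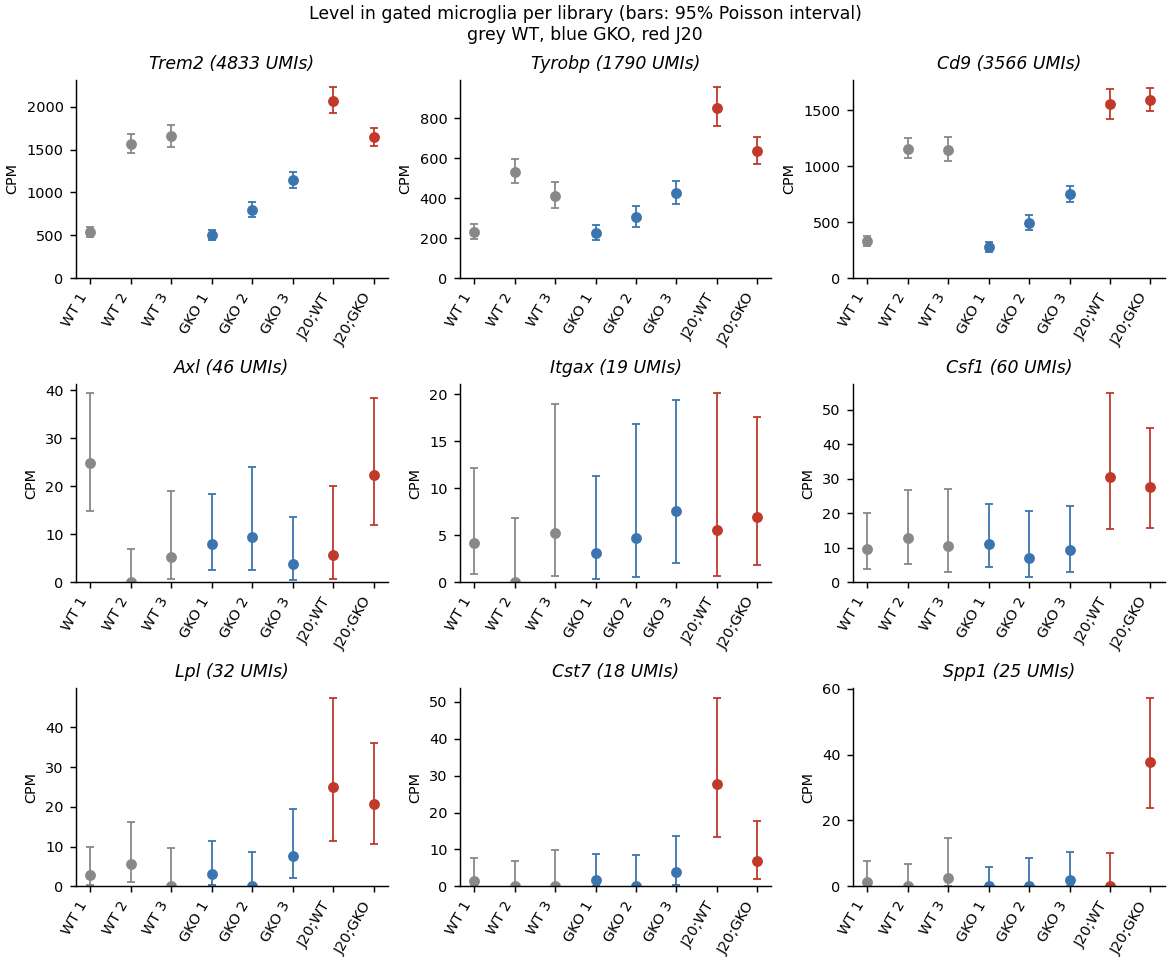
CPM of each of the 9 genes in the gated microglia of each library, with exact 95% Poisson intervals that cover counting error only. Both red J20 points lie above all 6 others for Tyrobp, Cd9, Csf1, Lpl and Cst7, while Trem2 overlaps and Spp1 is high in J20;GKO alone.

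How many of the 9 passed the test depended on the fit. With no filter on low counts, 4 of 9 were called higher in J20 microglia (Tyrobp 1.07, Spp1 3.94, Lpl 2.67 and Cst7 3.45 on the log2 scale, with edgeR adjusted p of 1.4e-06, 0.00102, 0.00928 and 0.0168), where 62 of 19726 genes were called higher (0.314%). Of these 4, Spp1 had 0 UMIs in J20;WT and 22 in J20;GKO, 10 of them in 1 nucleus, so it was high in 1 J20 mouse only. Lpl and Cst7 had 32 and 18 UMIs in all microglia, most of them in the J20 libraries. With a term for the date, which leaves the single J20;GKO mouse against the 4 WT and GKO libraries of its date and takes the spread from the other groups, 1 of 8 was called higher, Cd9, by 1.26 (standard error 0.21, adjusted p = 0.00377, edgeR), and 17 of 9589 genes were (0.177%). In that fit Xist and Tsix stood at 13.6 and 10.4, and Ddx3y, Kdm5d, Eif2s3y and Uty at -5.74, -7.68, -8.90 and -9.22. Sex-linked genes thus moved with this contrast, so sex and J20 cannot be told apart in it. The part of sex in the Cd9 difference was not tested. Within 1 genotype, in a fit of 4 groups where a lone J20 mouse is assumed to vary like the other groups, 0 of 8 passed. Tyrobp stood at 1.17 in J20;WT over WT and at 1.02 in J20;GKO over GKO, Csf1 at 1.504 and 1.55, Lpl at 3.00 and 2.41, and Axl at -0.96 and 1.68.

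**Figure D3:**
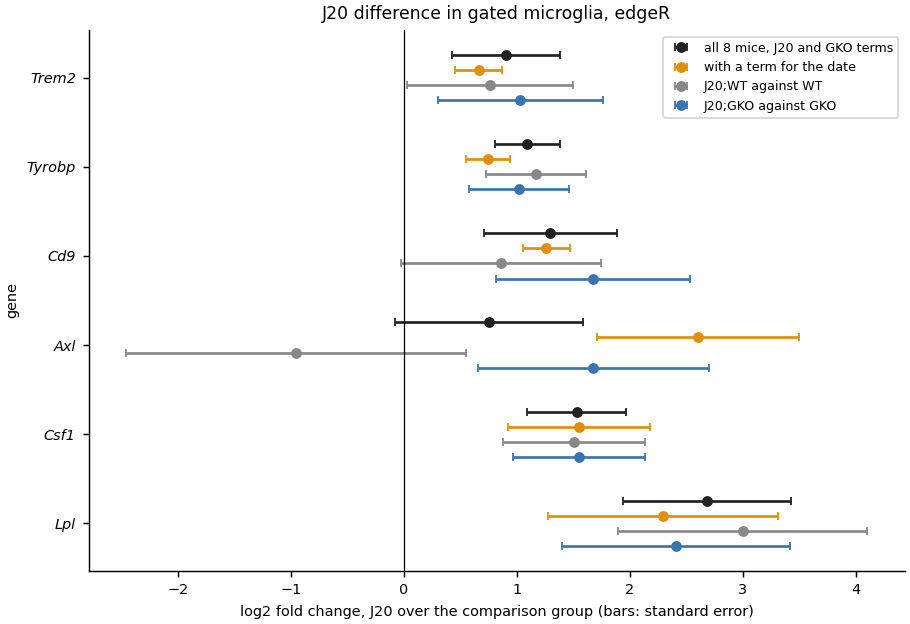
Log2 fold change of 6 genes in gated microglia, J20 over the comparison group, in 4 edgeR contrasts, with bars for the standard error. Tyrobp, Csf1 and Lpl lie between 0.75 and 3.00 in all 4, and Axl is at -0.96 in J20;WT against WT.

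Trem2, Tyrobp and Cd9 also differed widely among mice without the transgene. In the 6 WT and GKO libraries Trem2 ranged from 501 to 1657 CPM, Tyrobp from 228 to 534 and Cd9 from 276 to 1158, and all 3 genes were lowest in WT 1 and GKO 1, the libraries that share a date. The depth per nucleus was not lower there, with medians of 2152 and 2332 UMIs against 1714 to 2015 in the other 4. The share of microglial UMIs from genes spanning under 10 kb moved with these levels: it was 14.2% in WT 1 and 12.5% in GKO 1, 15.8% to 18.01% in the other 4, 18.3% in J20;WT, with J20;GKO at 17.8%. The summed CPM of the 12 gate markers moved as well, from 16728 to 25120 in the 6 libraries to 27278 in J20;WT, with J20;GKO at 27431, and that of C1qa, C1qb and C1qc, which are among them, was 4724 and 3990 in WT 1 and GKO 1, 5556 to 10947 in the other 4, 11853 in J20;WT, with J20;GKO at 12824. The part of these measures in the level of the 3 genes was not tested. Among the 5 libraries of 1 date, J20;GKO stood at 1645 CPM of Trem2 against 799 to 1657, at 637 of Tyrobp against 304 to 534 and at 1593 of Cd9 against 490 to 1158.

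**Figure D4:**
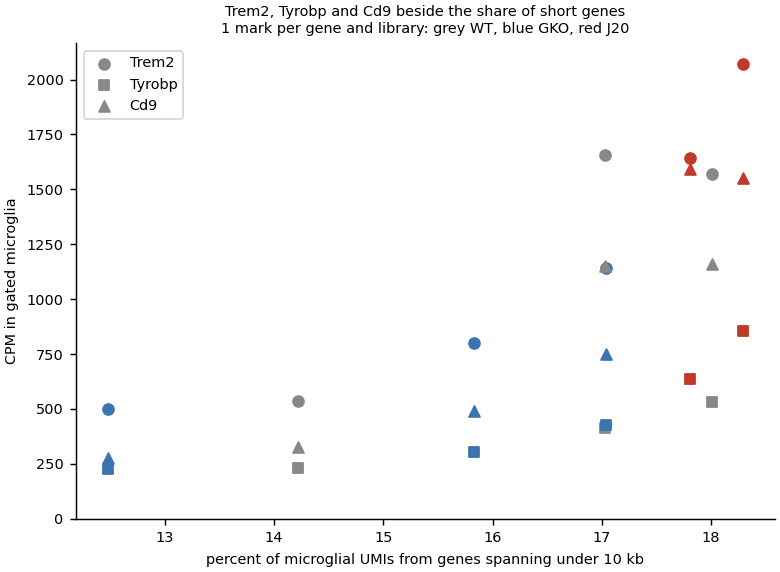
CPM of Trem2, Tyrobp and Cd9 in gated microglia against the percent of microglial UMIs from genes that span under 10 kb, with 1 mark per gene and library. The libraries with 12.5% and 14.2% of short-gene UMIs have the lowest level of all 3 genes, and the J20 libraries, at 17.8% and 18.3%, have the highest Tyrobp and Cd9.

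Between GKO and WT microglia none of the 9 genes was called. Trem2, Tyrobp and Cd9 passed the filter in the 6 libraries, with log2 fold changes, GKO over WT, of -0.64 (standard error 0.53), -0.31 (0.33) and -0.82 (0.65), each with an adjusted p of 1.00 (edgeR). No gene of 7918 was called (0%), 213 were at an unadjusted p under 0.05, and DESeq2 called 0. With the replicate number as a block the standard errors fell to 0.14, 0.15 and 0.15, the fold changes were -0.55, -0.27 and -0.72 (adjusted p of 0.283, 0.822 and 0.121, edgeR), and still no gene was called. GKO was below WT of the same number in all 3 pairs for Trem2 and Cd9, and in 2 of 3 for Tyrobp. This pairing was taken from correlations in these same microglia and is weakly supported beyond the shared date. The smaller standard errors and the counts of pairs rest on it.

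The genes that Trem2 and Tyrobp signal through were not called in either contrast, and neither was any other gene (0% of 8856 in J20 against the rest and 0% of 7918 in GKO against WT). Of 12 partners, 10 were tested and 0 passed the threshold in J20 against the rest or in GKO against WT, with a median log2 fold change in J20 of -0.07 against -0.02 for all genes tested. Plcg2, the phospholipase downstream of SYK, stood at -0.36 (standard error 0.17, adjusted p = 0.717, edgeR), Pik3ap1, an adaptor for PI3 kinase, at 0.29, and Vav1, a signalling protein of blood cells, at -0.26. Of 15 ligands, receptors and cofactors of the 9 genes, 10 were tested and 0 passed in either contrast, with a median of 0.22 in J20. Gas6, the ligand of AXL, stood at 0.89 (standard error 0.36, adjusted p = 0.692, edgeR), Csf1r, the receptor for CSF1, at 0.48 and Itgb2, the partner chain of ITGAX, at 0.43. Apoe, a ligand of TREM2, lay between 579 and 968 CPM in the 6 other libraries, at 437 in J20;WT and at 982 in J20;GKO.

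Of 27 other genes of the disease-associated program, 21 were tested and 0 passed, as for all genes tested (0%). Of the 21, 18 had a fold change above 0 (85.7%, against 48.0% of all genes tested) and the median was 0.82. Both J20 libraries lay above the 6 others for 12 of the 23 with at least 18 UMIs and below them for 0, where 3.97% of all such genes were above and 4.64% below. Ccl6, a chemokine, stood at 1.37 (standard error 0.30, adjusted p = 0.184, edgeR), Cd63, a tetraspanin of late endosomes, at 1.24, and Ctsl, cathepsin L, at 1.12. Ccl6 was at 18.7 to 51.7 CPM in the 6 other libraries, 150 in J20;WT and 46.5 in J20;GKO, so it was high in 1 of the J20 mice. With the date term, where J20 is the single J20;GKO mouse, where sex-linked genes were called too and where 0.177% of all genes were called higher, 3 of 22 were called, all higher: Ctsz, a cathepsin, by 1.06 (adjusted p = 0.0013), Lyz2, lysozyme, by 1.11 (0.0197) and Ctsb, cathepsin B, by 0.82 (0.0218, all edgeR). Sex and J20 cannot be told apart in the fit with the date term. In GKO against WT 0 of the 20 tested passed, as for all genes tested (0%).

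Of 12 homeostatic genes of microglia, all were tested and 0 passed, as for all genes tested (0%). In J20, 11 had a fold change above 0 and the median was 0.42, with Gpr34 (0.78), P2ry13 (0.76), both receptors for lipids or nucleotides, and Fcrls (0.75), an Fc receptor-like gene, the furthest from 0. Their summed level was 10052 to 14894 CPM in the 6 other libraries, 15820 in J20;WT and 13916 in J20;GKO. Both J20 libraries lay above the 6 others for 2 of these 12 genes and below them for 0. For the 12 microglial gate markers the counts were 3 and 1. Of all genes with at least 18 UMIs, 3.97% were above and 4.64% below, so separation of the J20 libraries was not confined to the disease-associated genes. Markers of MHC class II cells and border macrophages, which the gate could hold, summed to 447 to 1211 CPM in the 6 libraries, 367 in J20;WT and 565 in J20;GKO over 12 genes, within or under the range of the 6. H2-Aa, H2-Eb1 and Cd74, the furthest from 0 of the 5 tested, stood at -2.66, -1.76 and -1.38, with 0 past the threshold. Choroid plexus genes, a measure of free RNA, summed to 25.7 to 1181 CPM over 8 genes in the 6 libraries, 729 in J20;WT, with J20;GKO at 29.3, and of the 2 tested Enpp2 stood at -1.29 and Ttr at -0.50.

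The genes were then counted together in single nuclei, leaving out the receptor pair Trem2 and Tyrobp. Of the 7 others Cd9 was found in 60.2% of microglia and each of the rest in 0.585% to 2.68%. At least 2 of the other 7 had a UMI in 8.46% of the microglia of J20;WT (exact binomial 95% interval 5.004% to 13.2%) and 12.4% of J20;GKO (8.61% to 16.99%), against 1.71% to 5% in the 6 other libraries. Thinned to 1000 UMIs the shares were 4.59% and 5.51% against 0.441% to 2.84%, and both J20 libraries again stood above the others. At least 3 were found in 12 of 460 J20 microglia (2.61%) and in 7 of 1590 others (0.44%), with 1.99% in J20;WT, 3.09% in J20;GKO and 0% to 0.938% in the other libraries. Thinned, at least 3 were found in 0 of 196 nuclei of J20;WT, 2 of 254 of J20;GKO and 1 of 227 of GKO 2, so J20;WT no longer stood above the others. Nuclei are not replicates, so no test was made over them, and the intervals cover counting error only.

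Of the 2050 microglia, 3 held 4 or more of the 7. A nucleus of J20;GKO, with 3051 UMIs, held all 7: 2 UMIs of Itgax, 1 of Axl, 19 of Cd9, 3 of Cst7, 7 of Lpl, 10 of Spp1 and 2 of Csf1, beside 18 of Trem2 and 24 of Apoe. It also held 4 UMIs of P2ry12, 1 of Cx3cr1 and 0 of Mrc1, the border macrophage gene. A nucleus of GKO 3 held 5 of the 7 at 2303 UMIs, and a nucleus of J20;WT held 4 at 3024 UMIs, and none of the 3 was called a doublet. Since the 10 UMIs of Spp1, 7 of the 12 of Lpl and 3 of the 4 of Cst7 in J20;GKO came from 1 nucleus, the CPM of these genes in that library rests in part on it.

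**Figure D5:**
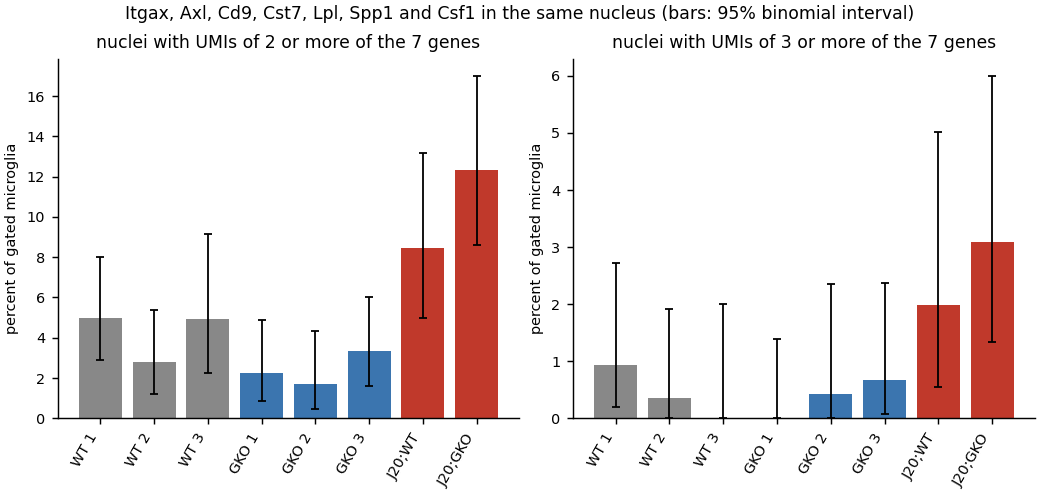
Percent of gated microglia per library with UMIs of at least 2 (left) and at least 3 (right) of Itgax, Axl, Cd9, Cst7, Lpl, Spp1 and Csf1, with exact 95% binomial intervals. At 2 or more, J20;WT (8.46%) and J20;GKO (12.4%) lie above the 6 others, whose highest is 5%.

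The 12 J20 nuclei with at least 3 of the 7 still carried homeostatic genes. Cx3cr1, the fractalkine receptor, had a UMI in 10 of them, P2ry12 in 9 and Tmem119 in 6, and Trem2 in 11. In the 87 J20 microglia with none of the 7, Cx3cr1 was found in 80 and Trem2 in 60. The level of Cx3cr1 was 1452 CPM in the first set and 2084 CPM in the second, that of P2ry12 968 and 1359 CPM, and that of Apoe 2704 and 509 CPM. The sets were formed from the counts of the 7 genes and differ in depth, with medians of 2995 and 1672 UMIs, and 24 of the Apoe UMIs of the first set came from the nucleus that held all 7.

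Outside microglia none of the 9 genes was called in either contrast. In J20 against the rest, 9 genes were tested in excitatory neurons, where 0.256% of all genes were called, 4 in astrocytes (0.0167%), 3 in oligodendrocytes (0.0173%), 2 in OPCs (0.0109%), 1 in inhibitory neurons (0%) and 3 in mural cells or fibroblasts (0%). In GKO against WT, 1 to 8 of the genes were tested per type, and 0 of 1230 to 17906 genes were called in each (0%). Axl in excitatory neurons was lower in both J20 libraries (0.511 and 0.573 CPM) than in the 6 others (0.783 to 1.73 CPM), at -1.28 on the log2 scale (adjusted p = 0.239, edgeR). Csf1 in oligodendrocytes was above the 6 others in both (91.4 and 97.4 CPM against 61.7 to 88.2 CPM), at 0.35 (adjusted p = 0.66, edgeR). In astrocytes, which hold most Axl, the Axl values of the J20 libraries (69.4 and 63.4 CPM) lay within the range of the others (54.6 to 80.5 CPM).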

How the data were processed

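Nuclei of the hippocampus were profiled by 10X sn-RNAseq, 1 library per mouse (3 WT, 3 GKO, 1 J20;WT, 1 J20;GKO). The deposited values are raw UMI counts per gene and barcode, which the authors made with Cell Ranger on mm10. Whether intronic reads were counted is not given in the sources used here. The nuclei filter of the study was applied (at most 5% mitochondrial UMIs, 200 to 7500 genes). Per library, 21020159 to 43310978 UMIs remained. Seurat 3.0 and R 3.6.2 are the versions the study names.

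Microglia were nuclei with at least 0.6% of their UMIs from 12 markers, at least 2 markers detected and no other type's score, relative to its own cut, within a factor of 2. Other types were gated likewise, and 4.18% of nuclei were mixed and 6.20% unassigned. Doublets called by Scrublet were kept (5 among microglia), and the caller marked 1 nucleus in WT 1 and 0 in GKO 1, so it did not work there. Clusters (scanpy 1.11.5, 30 components, resolution 0.8) were made without the 9 genes.

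Counts were summed per library and type and tested with edgeR 4.0.16 (R 4.3.3; TMM, filterByExpr, quasi-likelihood, Benjamini-Hochberg over all genes), calling an adjusted p under 0.05 with a log2 fold change over 0.3 in size. J20 and GKO were additive terms over 8 mice, GKO against WT used 6 mice, and cell types were compared with the mouse as a block. DESeq2 1.42.0, other scalings, filters, gates, a date term and leaving out each library were alternatives. The fits were tested on simulated microglial counts in which 200 genes changed by 1 on the log2 scale. Of these, 38.5% were called in J20 against the rest, with 4 false calls, and 46% in GKO against WT, with 3. A change of that size would thus often be missed. WT and GKO libraries of the same number deviated together in microglia (correlations of 0.446, 0.115 and 0.151 over genes), each over 0.1, so the numbers in the titles were taken to pair them. Libraries of different numbers that share a date correlated as much (0.203 for WT 2 with GKO 3, 0.101 for WT 3 with GKO 2), so beyond the date the pairing is weakly supported. Genes named from each further list are the 3 furthest from 0 in the J20 contrast, and others were chosen after their values were seen. The 10 genes and the lists were chosen with earlier results of these data known. Intervals are exact at 95% and cover counting error only, and a count of 0 allows 3 UMIs.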

Additional observations from a re-analysis of the deposited data

How the results depend on the processing

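In J20 microglia 0 of the 6 genes tested were called in the main test, as for all 8856 genes (0%). Itgax, Cst7 and Spp1 were not tested there. With no filter on low counts 4 of 9 were called higher, where 0.314% of all genes were. With a date term, which leaves J20;GKO as the only J20 mouse, 1 of 8 was called. Each other alternative, leaving out each library included, called 0 of the 4 to 9 genes it tested. The difference for Axl turned to -0.96 in J20;WT against WT, and its range over left-out libraries was -0.94 to 1.68. The replicate block changed no call: Trem2 in GKO against WT microglia was at -0.55 with the block and -0.64 without. Against other types, Spp1 turned to 0.082 against astrocytes by library size alone and 1.07 in whole clusters, Cd9 to 0.21 against oligodendrocytes by library size alone, and in whole clusters Csf1 turned to -0.090 against OPCs and Lpl to -0.50 against mural cells or fibroblasts. Leaving out each library, Spp1 ranged from -0.48 to 1.91 against excitatory neurons, -0.88 to 2.77 against inhibitory neurons, -1.94 to 0.16 against astrocytes, -0.80 to 1.90 against oligodendrocytes and -1.08 to 1.41 against OPCs, Csf1 from -0.0044 to 0.37 against OPCs, and Lpl from -0.20 to 1.21 against mural cells or fibroblasts. The J20 difference in the share of nuclei ranged from -0.14 to 3.32 points for microglia, -1.33 to 6.44 for excitatory neurons, -7.12 to 1.57 for oligodendrocytes, -0.96 to 0.21 for OPCs and -0.28 to 0.11 for mural cells or fibroblasts. Thinned to 1000 UMIs, the J20 difference in the share of microglia with a UMI was 1.05 points for Cst7, -0.018 for Lpl, 0.69 for Spp1 and 1.83 for Csf1. The cause of these changes was not tested, beyond the fewer genes or libraries that an alternative holds. Depth limits Cst7, Itgax, Lpl, Spp1, Axl and Csf1, which had 18 to 60 UMIs each in 2050 microglia.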
